A study of Mus musculus with 5 samples.

Results

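The genes described here are 41 genes of the G1/S transition and of DNA replication, taken by symbol from a list of cyclin E and its kinase, E2F factors, licensing and replication fork proteins, nucleotide enzymes and replication-coupled chromatin factors. All 41 were among the 29495 genes in the files, and all 41 passed the filter on low counts, which kept 15919 genes. They were measured in mouse glioma cells of the genotype p53-/-;NF1-/-;tdTomato+/-, from a tumor model on a background mixed of CD-1 and C57BL/6. Every library, controls included, came from cells that had been grown with olfactory bulb (OB) neurons of C57BL/6 pups aged 2 to 3 days and then sorted away from them on tdTomato, a red fluorescent protein. The control group (coculture, replicates 1 and 2) received no stated treatment, and the other group (replicates 3, 4 and 5) was kept overnight with IGF-1, insulin-like growth factor 1, at 20 ng/mL. The neurons had been plated in a medium with insulin and serum, and the later media, named 0ARAC and 4ARAC in the labels, also held serum, so the controls were not free of growth factors. The labels used here give the composition of 4ARAC only in part, so it is not known here whether it held a compound that acts on DNA synthesis, which would bear on the levels of S phase genes in both groups. The labels do not say whether the libraries came from separate tumors or cultures, so p-values reflect the scatter of these 5 libraries alone, and that scatter may be technical.

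A cell enters S phase when growth factor signals raise cyclin D, whose kinases, together with cyclin E and CDK2, phosphorylate the retinoblastoma protein and free the activating E2F factors. E2F then drives transcription of the enzymes and helicase subunits that copy DNA, as well as of cyclin E and of E2F7 and E2F8, which feed back to repress the same genes. IGF-1, acting through the PI3K and RAS pathways, is a classical signal for this step in glial and many other cells.

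Libraries held 16944315 to 20144181 counts. The 41 genes together took 0.581% to 0.639% of them, between 148 and 9025 counts for a gene in a library, and 23 of the 41 averaged over 100 CPM, the count scaled to library size and composition. IGF-1 replicate 5 stood apart from the rest: per degree of freedom, the chi-square statistic between libraries over genes was 2.29 for the 2 controls and 2.33 for IGF-1 replicates 3 and 4, but 13.4 and 13.5 for replicate 5 against replicates 3 and 4. Glial markers were high in all libraries (Olig2 4169 to 6040 counts, Sox10 13229 to 19331). Markers of cells that the sort should remove were scarce: the 4 microglial markers summed to 9 to 16 counts in the controls and 13 to 14 with IGF-1, the 2 endothelial ones to 16 to 17 and 6 to 25, and the 8 neuronal ones to 135 to 138 and 154 to 301. Of the neuronal markers, Rbfox3 had 0 to 1 counts. Slc32a1 had 3 and 2 counts in the controls and 0 in all IGF-1 libraries. Stmn2 had 4 and 4 counts against 1, 6 and 1, and Slc17a6 had 0 and 3 against 2, 0 and 0. Gad1 (27 and 11 counts for the controls, against 30, 34 and 32) and Gad2 (11 and 9 against 12, 12 and 15) were above both controls in every IGF-1 library. For Gad1 the margin was small in replicate 5, at 1.57 CPM beside 1.56 CPM in control replicate 1. Snap25 had 9 and 14 counts against 15, 13 and 21. Syt1, with 232 counts in replicate 5, made up most of the top value.

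Some of the promoters of these genes carry the letters that E2F factors are known to bind. An E2F site was searched as TTTCGCGC or TTTGGCGC on both strands, in windows from 250 bases before to 50 bases after each start in RefSeq (GRCm38.p6), with overlapping matches counted separately. Ccne2, Mcm4, Gins1, Gins2 and Pole had no window in that table and were not searched. Of the 36 of the 41 genes with a window, 12 held a site (33.3%), against 251 of 27025 genes with a window in all (0.929%). The 12 were the licensing genes Orc1, Cdt1, Mcm3, Mcm5, Mcm6 and Mcm7, the polymerase gene Pola1, the clamp loader gene Rfc3, the ligase gene Lig1, and Clspn, Uhrf1 and E2f2. The 3 most abundant of them are shown because they place the site in genes whose RNA is described next. The 250 bases before the start are given 5′ to 3′ on the strand of the gene, in GRCm38.p6, with the matches in capitals:

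Mcm6, chr1:128359706-128359955 (- strand): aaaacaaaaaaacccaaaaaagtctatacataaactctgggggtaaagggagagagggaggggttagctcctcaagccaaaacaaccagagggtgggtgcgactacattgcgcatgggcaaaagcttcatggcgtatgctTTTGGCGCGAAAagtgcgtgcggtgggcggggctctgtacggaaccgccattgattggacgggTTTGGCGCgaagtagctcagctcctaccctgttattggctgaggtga

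Uhrf1, chr17:56304063-56304312 (+ strand): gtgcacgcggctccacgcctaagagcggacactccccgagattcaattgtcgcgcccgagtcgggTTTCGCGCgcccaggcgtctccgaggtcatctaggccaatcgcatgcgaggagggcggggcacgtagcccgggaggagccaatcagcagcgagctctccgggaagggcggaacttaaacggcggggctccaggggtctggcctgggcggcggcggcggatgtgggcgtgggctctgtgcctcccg

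Mcm5, chr8:75109259-75109508 (+ strand): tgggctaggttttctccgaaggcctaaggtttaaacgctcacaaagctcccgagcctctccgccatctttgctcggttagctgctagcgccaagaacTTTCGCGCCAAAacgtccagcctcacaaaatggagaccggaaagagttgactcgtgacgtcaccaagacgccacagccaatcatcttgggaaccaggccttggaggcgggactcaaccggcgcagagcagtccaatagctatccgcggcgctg

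Mcm6 held 3 matches, 2 of them overlapping in 1 run of capitals, whose first bases lay between 110 and 47 bases before the start. Mcm5 held 2 overlapping matches, which began 153 and 149 bases before it, and Uhrf1 held 1, which began 185 bases before the second of its 2 starts. In a list of other replication genes, described below, 37 had a window, and 4 of these held the E2F letters (10.8%). The site was thus not confined to the 41 genes. The G2/M and mitosis genes mostly had other letters. Of 30 G2/M and mitosis genes with a window 1 held the E2F letters (3.33%), and 23 (76.7%) held TTTGAA, the core of the cell cycle genes homology region (CHR) of mitotic promoters. The CHR core was in 19.4% of the G1/S and replication genes, 18.9% of the other replication genes and 20.2% of all genes. It did not set the G1/S and replication genes apart. CCAAT, the box bound by NF-Y, was in 72.2% of them and in 73.3% of the G2/M genes. It was in 45.9% of the other replication genes and in 41.1% of all genes. These shares describe letters in a window and are no evidence of binding. The windows also differ in base composition. Their mean GC content was 60.1% for the listed genes, 62.2% for the other replication genes, 59.1% for the G2/M and mitosis genes and 53.8% over all windows.

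**Figure D1:**
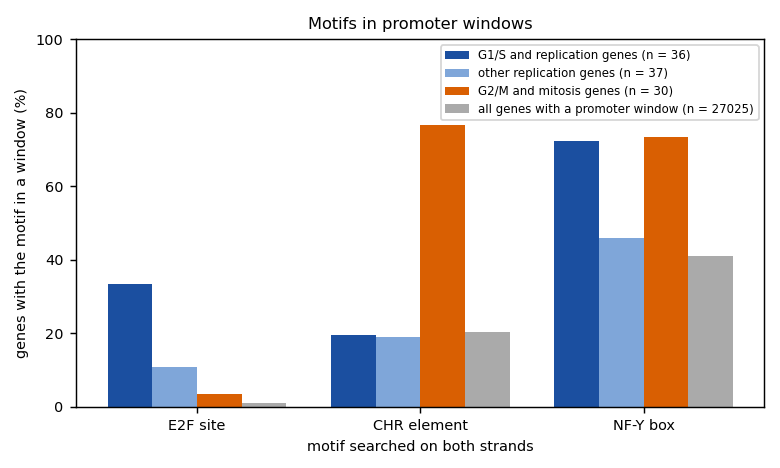
Share of genes (percent, y axis) with each motif in a RefSeq promoter window, for the G1/S and replication genes and 3 other sets, with the number of genes in the legend. E2F letters are in 33.3% of the G1/S and replication genes, 10.8% of the other replication genes and 0.929% of all genes. The CHR core is in 76.7% of the G2/M genes.

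The comparison of IGF-1 with control asks whether the S phase program of co-cultured glioma cells differs at the RNA level after overnight IGF-1. With edgeR (quasi-likelihood F-test, p adjusted over all genes by Benjamini-Hochberg), 0 of the 41 genes passed an adjusted p of 0.05, against 163 of 15919 genes in all (1.02%). DESeq2 and limma-voom also called 0 of the 41, and DESeq2 called 280 of the 11907 genes to which it gave an adjusted p (2.35%). At an unadjusted p under 0.05, 1 was higher and 1 lower (4.88%), against 12.7% of all genes tested. The median log2 change of the 41 was -0.04, beside -0.0076 over all genes tested, and their changes ran from -0.23 to 0.22 with an SD of 0.098. The median of the 41 below 0 rested on IGF-1 replicate 5, without which it was 0.014, so no fall was established. In bulk RNA, a different share of cells in S phase and a different level of these RNAs per cell could not be told apart.

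The intervals of these log2 changes were narrow relative to those over all genes tested. Standard errors of the 41 log2 changes ran from 0.059 to 0.16 with a median of 0.075, against a median of 0.12 over all genes tested. The 95% interval lay inside -0.5 to 0.5, which is a 1.41-fold change either way, for all 41 genes and for 58.1% of all genes tested. It did so for 93.6% of other replication genes, 97.1% of G2/M genes and 78.1% of other G1/S control genes, lists described below. Each of the 41 had at least 148 counts in each library, while the filter had a minimum count of 10. The comparison with all genes is thus between unlike abundances, and narrow intervals were not particular to the 41. The lowest bound was -0.44, for Gins2, and the highest 0.44, for Ccne1. These 2 bounds lie further from 0 than the log2 change of 0.36 called for Ccnd1, described below. A change of that size is thus not excluded for every gene of the 41. IGF-1 and control values did not overlap for 10 of the 41 genes (24.4%), 6 above and 4 below the controls, against 33.1% of all genes tested. A share below the background is no result about these genes.

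**Figure D2:**
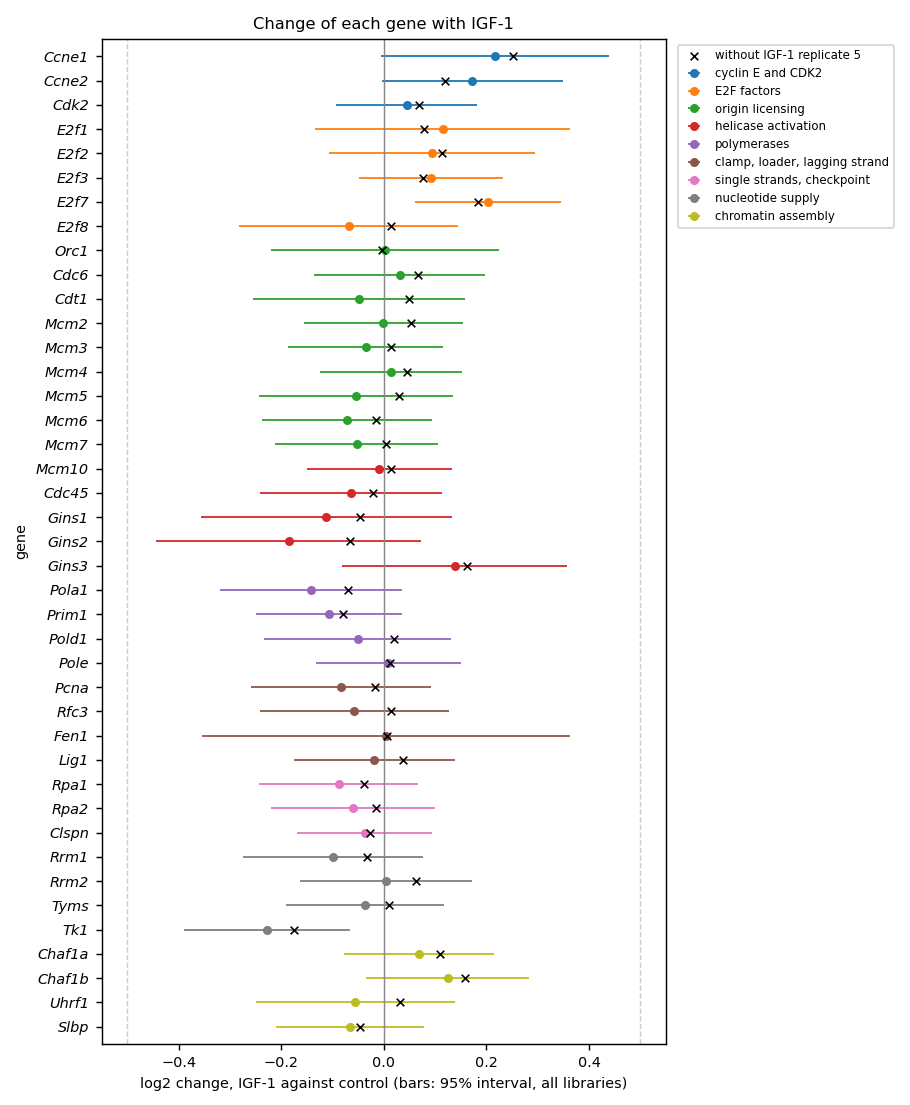
Log2 change of each of the 41 genes (x axis), IGF-1 against control, as points with 95% intervals from edgeR over all 5 libraries, coloured by role, and as crosses without IGF-1 replicate 5. All bars stay between the dashed lines at -0.5 and 0.5, and only those of E2f7 and Tk1 miss 0.

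The pair that leaned furthest from 0 relative to their error were E2f7 and Tk1. E2f7, an atypical E2F that represses E2F targets late in S phase, was read at 79.6 and 76.8 CPM in the controls and at 89.3, 88.3 and 92.4 CPM in IGF-1 replicates 3, 4 and 5. All 3 IGF-1 libraries lay above both controls, and the log2 change was 0.20 with an SE of 0.06 (unadjusted p = 0.00961, adjusted p = 0.214). Tk1, cytosolic thymidine kinase, which salvages thymidine for DNA synthesis, was at 105 and 112 CPM in the controls and 96.2, 96.6 and 86.0 CPM with IGF-1. All 3 IGF-1 libraries lay below both controls, and the log2 change was -0.23 with an SE of 0.07 (unadjusted p = 0.0104, adjusted p = 0.222). Without IGF-1 replicate 5 both passed the test, E2f7 higher by 0.18 (adjusted p = 0.0221) and Tk1 lower by 0.17, a log2 change of -0.17 (adjusted p = 0.0183). They were then 2 called of 41 (4.88%), against 1424 of 15573 genes tested (9.14%).

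Cyclin E activates CDK2 at the end of G1. Ccne1 was at 22.7 and 26.4 CPM in the controls and 28.7, 29.8 and 27.2 CPM with IGF-1, and its log2 change of 0.22 (SE 0.10, unadjusted p = 0.0549, adjusted p = 0.407) was the highest of the 41 with all libraries. It was 0.11 without control replicate 1, below those of E2f1 (0.27) and E2f7 (0.23), and 0.33 without control replicate 2. Ccne2 was at 63.8 and 67.1 CPM in the controls and 74.3, 67.9 and 79.0 CPM with IGF-1, with a log2 change of 0.17 (SE 0.08, adjusted p = 0.405). For both cyclins every IGF-1 library lay above both controls, by little in Ccne1 replicate 5 and Ccne2 replicate 4, and neither passed. Cdk2, their kinase, was at 111 and 114 CPM in the controls and 118, 117 and 112 CPM with IGF-1, so the groups overlapped (log2 change 0.04, 95% interval -0.09 to 0.18).

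Among E2F genes, those of the activators E2f1, E2f2 and E2f3 had log2 changes of 0.11, 0.093 and 0.092, with SEs of 0.11, 0.090 and 0.063, and adjusted p from 0.594 to 0.71. E2f3, the most abundant, was at 108 and 111 CPM in the controls and 119.6, 112 and 119 CPM with IGF-1. Its IGF-1 libraries lay above both controls, in replicate 4 by less than 1 CPM. E2f1 differed between the controls themselves, at 40.6 and 33.3 CPM, and was at 35.4, 42.7 and 42.0 CPM with IGF-1. Its log2 change was 0.27 without control replicate 1 and -0.020 without control replicate 2. E2f8, the other atypical repressor, did not share the direction of E2f7: it was at 50.4 and 52.0 CPM in the controls and 53.8, 49.8 and 43.1 CPM with IGF-1 (log2 change -0.07, SE 0.10), and its value without replicate 5 was 0.015.

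Origin licensing loads the MCM helicase onto DNA in G1. ORC1, CDC6 and CDT1 load the ring made of MCM2 to MCM7. Over these 9 genes the log2 changes ran from -0.07 to 0.031, and in all 9 the groups overlapped. Mcm6, the most abundant, was at 434 and 435 CPM in the controls and 445, 416 and 379 CPM with IGF-1 (log2 change -0.07, SE 0.07, adjusted p = 0.728). Replicate 5 was the lowest library for each of the 6 ring subunits, while replicate 3 was at or above the controls for all but Mcm7. The other ring subunits had log2 changes of -7.2e-04 for Mcm2, -0.035 for Mcm3, 0.013 for Mcm4, -0.05 for Mcm5 and -0.05 for Mcm7. On the log2 scale Cdt1 had the widest range over IGF-1 libraries of the 9, with 149 and 151 CPM in replicates 3 and 4 but 121 CPM in replicate 5, beside 148 and 142 CPM in the controls. The scarcer loaders Cdc6 and Orc1 were at 60.3 to 67.6 and 20.1 to 22.6 CPM over all libraries, with log2 changes of 0.031 and 0.0023.

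The ring subunits form a complex with 1 copy of each, and their RNA levels can be compared per length of exon. On the scale of CPM per kilobase of exon (GENCODE M21, GRCm38), the control means were 130.03 for Mcm7, 112 for Mcm5, 103 for Mcm3, 99.3 for Mcm6, 84.5 for Mcm2 and 48.6 for Mcm4. The IGF-1 means ran from 125 for Mcm7 to 49.1 for Mcm4, and the order was the same in each of the 5 libraries. The same lengths were used for every library, so the repeated order is no check on them. The annotation used for the counts is not known here. In GENCODE M21, 13.0% of the exonic bases of Mcm7 overlap Ap4m1 and Cops6 on the other strand. Within a library the gap between neighbours was 14.3 to 20.2 CPM per kilobase for Mcm7 and Mcm5, 0.955 to 9.90 for Mcm5 and Mcm3, 3.09 to 9.07 for Mcm3 and Mcm6, 7.43 to 15.9 for Mcm6 and Mcm2, and 31.2 to 38.4 for Mcm2 and Mcm4. Down to Mcm2, each gap in the controls was smaller than the range of at least 1 of the pair over the IGF-1 libraries, a range in which replicate 5 is the lowest value for every subunit. Over all 41 genes the level per kilobase in the controls ran from 271 for Pcna to 4.02 for Fen1.

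Helicase activation needs CDC45, the GINS complex and MCM10, which turn the loaded ring into a moving fork. Mcm10, the most abundant of these genes, was at 95.2 and 95.3 CPM in the controls and 94.0, 98.4 and 91.7 CPM with IGF-1 (log2 change -0.0086, SE 0.06). Gins2 was at 42.8 and 42.4 CPM in the controls, 40.98 and 40.5 CPM in replicates 3 and 4, and 31.1 CPM in replicate 5. That library took the log2 change from -0.07 to -0.19 (SE 0.12, adjusted p = 0.547). The 3 GINS genes did not lean together: Gins1 was at -0.11 (SE 0.11) and Gins3 at 0.14 (SE 0.10), with Gins3 above both controls in every IGF-1 library. In the annotation used here 70.7% of the exonic bases of Gins2 overlap Gse1 on the other strand, and no source used here gives the strand setting of the counting, so its reads are less certain than those of Gins1 and Gins3.

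Among the polymerase genes, Pola1 and Prim1, which encode the catalytic subunits of the polymerase that starts each new strand and of its primase, were both below the controls in all 3 IGF-1 libraries. Pola1 was at 249 and 254 CPM in the controls and 245, 234 and 204 CPM with IGF-1, with a log2 change of -0.14 (SE 0.08, adjusted p = 0.499). Prim1 was at 144 and 142 CPM in the controls and 139.5, 131 and 127 CPM with IGF-1 (log2 change -0.11, SE 0.06, adjusted p = 0.525). Neither passed, and without replicate 5 they were at -0.07 and -0.08. The genes of the lagging and leading strand polymerases, Pold1 and Pole, overlapped between groups, with log2 changes of -0.05 and 0.0091.

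PCNA is the ring that holds polymerases on DNA, RFC loads it, and FEN1 and LIG1 finish the lagging strand. Pcna was at 398 and 425 CPM in the controls and 416, 397 and 351 CPM with IGF-1 (log2 change -0.08, SE 0.08, adjusted p = 0.702). Replicate 5 lay well below both controls, and replicate 4 was within 1 CPM of the lower one. The processed pseudogene Pcna-ps2 had 420 to 492 counts per library, and reads could be shared between the pair. Rfc3 and Lig1 had log2 changes of -0.06 (SE 0.08) and -0.018 (SE 0.07). Fen1 was the scarcest of the 41 genes, at 8.54 and 10.9 CPM in the controls and 8.54, 10.96 and 9.74 CPM with IGF-1, and its interval was wide (-0.35 to 0.36). In the annotation 84.1% of its exonic bases overlap other genes, among them Tmem258, and the part of this in its low level was not tested.

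RPA coats single-stranded DNA and claspin relays the replication checkpoint. Rpa1 was at 240.2 and 234 CPM in the controls and 237, 225 and 208 CPM with IGF-1 (log2 change -0.09, SE 0.07, adjusted p = 0.641). Rpa2 (-0.06) and Clspn (-0.04) had errors of the same size, 0.07 and 0.06. In these 3 genes the groups overlapped.

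Nucleotide supply depends on ribonucleotide reductase, thymidylate synthase and thymidine kinase. Rrm1, the large reductase subunit gene and the most abundant of all 41 by CPM, was at 487 and 495 CPM in the controls and 497, 464 and 415 CPM with IGF-1 (log2 change -0.10, SE 0.08, adjusted p = 0.644). Rrm2, the small subunit gene whose RNA follows S phase, had a log2 change of 0.0036 with a 95% interval of -0.16 to 0.17, and Tyms one of -0.04 with an interval of -0.19 to 0.12. In Rrm1, Rrm2 and Tyms the groups overlapped, unlike in Tk1, described above, and the difference between the genes was not tested.

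Chromatin is rebuilt behind the fork by CAF-1, whose subunits are encoded by Chaf1a and Chaf1b, while UHRF1 passes on DNA methylation and SLBP lets histone mRNA be made into protein. Uhrf1 was at 405 and 403 CPM in the controls and 416, 411 and 340.1 CPM with IGF-1 (log2 change -0.06, SE 0.09, adjusted p = 0.824): 2 IGF-1 libraries lay above both controls and 1 far below. Chaf1b was above both controls in every IGF-1 library, at 57.0 and 55.4 CPM against 62.1, 63.4 and 58.3 CPM (log2 change 0.12, SE 0.07, adjusted p = 0.507). Chaf1a was at 0.07 (SE 0.07) and Slbp at -0.07 (SE 0.06). Chaf1a shares 33.6% of its exonic bases with Ubxn6 on the other strand.

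**Figure D3:**
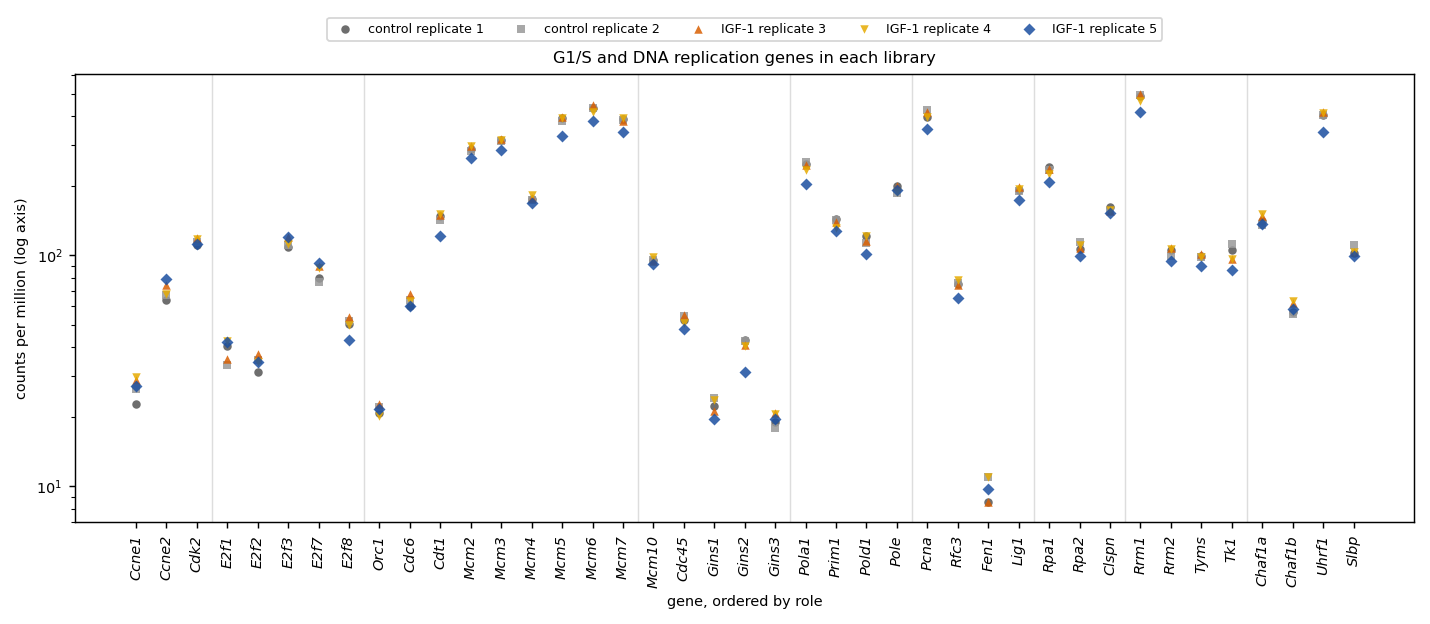
CPM (log axis) of each of the 41 genes in the 5 libraries, with genes in order of role and vertical lines between roles. Libraries mostly coincide, but IGF-1 replicate 5 (diamonds) lies below the mean of replicates 3 and 4 for 35 of the 41 genes. It is the lowest point for many genes, among them the MCM ring subunits, Gins2 (31.1 CPM) and Uhrf1 (340.1 CPM).

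The summed level of the 41 genes was lowest in IGF-1 replicate 5. It was 6356 and 6354 CPM in the controls, 6465 and 6344 CPM in IGF-1 replicates 3 and 4, and 5731 CPM in replicate 5. Against the mean of the controls, the median log2 difference of the 41 genes was 0.034 for replicate 3, 0.025 for replicate 4 and -0.13 for replicate 5, while the medians over all genes tested were -0.0018, -0.0041 and -0.0076. Replicate 5 lay below the mean of replicates 3 and 4 for 35 of the 41 genes (85.4%) and for 49.3% of all genes tested. The 6 exceptions were Ccne2, E2f1, E2f3, E2f7, Orc1 and Fen1. The same library was also lower for 35 of 35 G2/M and mitosis genes, with a median difference of -0.15, as compared with -0.14 for the 41 genes. In replicate 5 the ribosomal protein genes took 2.63% of counts, against 3.34% to 3.59% in the other libraries. The neuronal markers summed to 14.7 CPM there, beside 7.79 and 8.14 CPM in the controls and 8.48 and 9.0003 CPM in replicates 3 and 4. Syt1 alone was at 11.4 CPM in replicate 5, against 4.67 to 5.56 CPM in the other libraries, so most of that excess was of 1 gene. The part of these differences in the lower levels was not tested. Without replicate 5 the median log2 change of the 41 genes was 0.014, so the side of 0 on which it fell rested on that library, and 13 of the 41 genes changed sign, each of them at most 0.069 from 0 with all libraries.

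**Figure D4:**
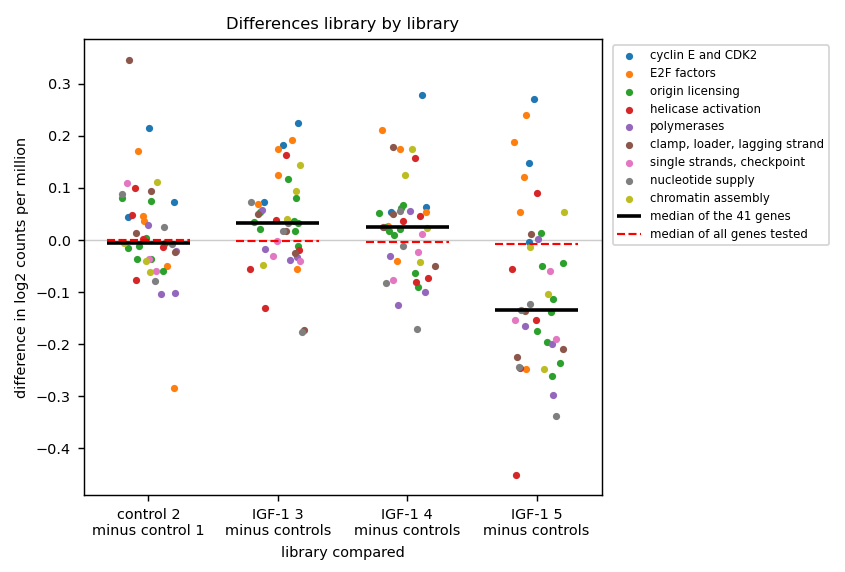
Difference in log2 CPM (y axis) for each of the 41 genes between the controls and between each IGF-1 library and the mean of the controls, with points coloured by role, black bars for the median of the 41 and red dashes for that of all genes tested. The black bar sits at -0.13 in replicate 5 and at 0.034 and 0.025 in replicates 3 and 4.

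Other genes of the pathway, in lists that hold none of the 41, held 2 called genes among controllers of G1/S and 0 in the replication machinery. Of 47 other replication genes (ORC, MCM, polymerase, clamp loader, checkpoint and nucleotide genes) edgeR and DESeq2 called 0, with 1 higher and 3 lower unadjusted (8.51%, against 12.7% of all genes tested) and a median of -0.04. The smallest p in that list were those of Orc5, an origin recognition subunit (log2 change -0.30, SE 0.11, adjusted p = 0.273), and Mcm8, a helicase of recombination (-0.20, SE 0.08, adjusted p = 0.349). Without replicate 5 edgeR called 1 of the 47 higher and 0 lower (2.13%, against 9.14% of all genes). It was the maintenance methyltransferase gene Dnmt1 (0.13, adjusted p = 0.00792), which was named after its value was seen. Of 32 genes that control G1/S, 2 rose and 0 fell by edgeR, where 1.02% of all genes were called, and DESeq2 called 3 higher and 0 lower, where it called 2.35%. Without replicate 5 edgeR called 5 higher and 1 lower (18.75%, against 9.14% of all genes). An unadjusted p under 0.05 was reached by 6 higher and 3 lower genes (28.1%, against 12.7%). The list was chosen with earlier results of these data known, so its shares are no evidence of an excess over all genes.

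The 2 that rose act on opposite sides of the step. Ccnd1, the gene of cyclin D1, was at 1141 and 1135 CPM in the controls and 1400, 1429 and 1545 CPM with IGF-1 (log2 change 0.36, SE 0.07, adjusted p = 0.0385). Cdkn1a, the gene of the kinase inhibitor p21, was at 65.1 and 62.6 CPM in the controls and 86.4, 90.6 and 89.9 CPM with IGF-1 (log2 change 0.48, SE 0.07, adjusted p = 0.0109). Both calls depended on which library was left out. edgeR's adjusted p for Ccnd1 was 0.501 and 0.597 without control replicate 1 or 2, 0.124 and 0.127 without IGF-1 replicate 3 or 4, and 1.87e-13 without replicate 5. For Cdkn1a it was 0.289, 0.36, 0.0492, 0.0588 and 9.38e-10 in the same order. Their log2 changes stayed at 0.31 to 0.39 and 0.45 to 0.51 whichever library was left out. Cdc25a, the phosphatase that activates CDK2, had a log2 change of 0.34 and passed by DESeq2 (adjusted p = 0.0386) but not by edgeR (adjusted p = 0.0579). It was named as the third call of DESeq2 after its value was seen. Cdkn1b, the gene of the inhibitor p27, was at -0.16 (SE 0.07, adjusted p = 0.401), and was lower without replicate 5 (-0.23, adjusted p = 6.93e-04). Rb1, the retinoblastoma gene, was at 0.16 (SE 0.10, adjusted p = 0.541), and its groups overlapped.

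In the G2/M and mitosis list 0 of 35 genes rose and 1 fell by both tools. Over all genes edgeR called 1.02% and DESeq2 2.35%. An unadjusted p under 0.05 was reached by 5 lower and 0 higher genes (14.3%, near the 12.7% of all genes tested). Without replicate 5 edgeR called 3 lower and 0 higher (8.57%, near the 9.14% of all genes). In this list 30 of the 35 log2 changes were below 0, against 25 of the 41 here and 51.7% of all genes tested. This lean rested in part on IGF-1 replicate 5. Dropping that library moved the median of the list from -0.085 to -0.034. Against the mean of the controls, the list medians were 0.0097, -0.073 and -0.21 in replicates 3, 4 and 5. The 1 that fell with all libraries was Cenpa, the centromeric histone gene (log2 change -0.39, edgeR adjusted p = 0.0306). Its adjusted p was 0.486 and 0.441 without control replicate 1 or 2, 0.0815 and 0.102 without IGF-1 replicate 3 or 4, and 1.96e-08 without replicate 5. The proliferation marker Mki67 was at -0.09 (adjusted p = 0.65).

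**Figure D5:**
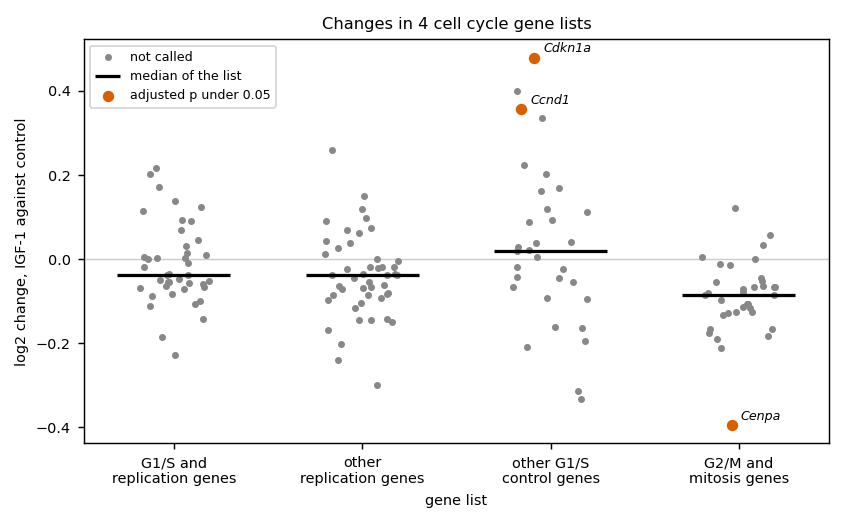
Log2 change with IGF-1 (y axis) of each tested gene in 4 lists, with black bars for the list medians and named orange points for adjusted p under 0.05. The G1/S and replication genes hold 0 orange points, the control list holds Cdkn1a (0.48) and Ccnd1 (0.36), and the mitosis list holds Cenpa (-0.39).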

How the data were processed

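Polyadenylated RNA of 2 control and 3 IGF-1 libraries was analysed. Each library has 1 deposited table of raw counts per gene symbol. The submitters' processing notes name GRCm39 as the build, and DESeq2 1.28.1, featureCounts 2.0.1, STAR 2.7.9a and cutadapt 3.4 as tools. Their roles, the annotation and the use of strand or multiply mapped reads are not given in the sources used here.

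In R 4.3.3, edgeR 4.0.16 removed low genes with filterByExpr (minimum count 10, minimum total count 15), scaled libraries with TMM factors and compared the groups by the two-sided quasi-likelihood F-test, with Benjamini-Hochberg adjustment over all genes and a threshold of 0.05. The SE is the size of the log2 change divided by the square root of F, and 95% intervals use the degrees of freedom of that test. Log2 differences of single libraries use CPM plus 0.25. Exon lengths and overlaps are unions of exons in GENCODE M21 (GRCm38), found by symbol for all 41 genes. Promoters are RefSeq's, of GRCm38.p6.

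The 41 genes, their roles and the other lists were chosen with earlier results of these data known. Genes given by library are those under an unadjusted p of 0.05, those called without IGF-1 replicate 5, the most abundant of each of 9 roles and the 3 highest and 3 lowest changes; others were added after their values were seen. In the other lists up to 4 called genes, or else the 2 of smallest p, are named, with Ccnd1, Cdkn1a, Cdkn1b, Rb1 and Mki67 whatever their result. Of the list genes Lin54 and the marker Cldn5 were not analysed here. Alternatives were RLE factors, no factors, no filter, DESeq2 1.42.0, limma-voom (limma 3.58.1) without and with sample quality weights, and each library left out. The procedure was tested on simulated data. The simulation gave all libraries the same spread and used changes larger than those of the 41 genes. It therefore bears neither on a library like IGF-1 replicate 5 nor on changes as small as those reported.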

Additional observations from a re-analysis of the deposited data

How the results depend on the processing

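With all libraries, 0 of the 41 genes passed in either direction under edgeR with TMM, RLE or no factors, without the filter, with DESeq2 and with limma-voom without and with quality weights. Leaving out 1 library gave 0 to 1 genes higher and 0 to 1 lower, the 1 and 1 being E2f7 and Tk1 without IGF-1 replicate 5 (0.18 and -0.17), whose log2 changes ran from 0.18 to 0.23 and from -0.27 to -0.17. Leaving out a control gives little support to a count of 0, since edgeR then called 0 genes higher and 2 lower of all tested, and the 1 control left takes its spread from the IGF-1 libraries. Over all genes 109 were higher and 54 lower as reported, 385 and 221 without the filter, 191 and 89 by DESeq2, 480 and 331 with quality weights, and 0 to 855 and 2 to 569 with 1 library left out. Outside the 41 genes, Cdc25a also passed without the filter and with quality weights, and Cdkn1b passed with quality weights. The weights gave replicate 5 a weight of 0.292, against 1.34 to 1.39 for the others.

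Some log2 changes changed sign, the largest of them as reported being that of E2f1 (0.11), without control replicate 2. Mcm2 was at 0.0022 with RLE factors, 0.0030 without the filter and 0.0022 by DESeq2. With quality weights it was at 0.036, Orc1 at -0.0027, Cdt1 at 0.018, Mcm5 at 0.0035, Mcm10 at 0.0069, Lig1 at 0.021 and Uhrf1 at 0.0049. With 1 library left out, log2 changes that crossed 0 ran from -0.036 to 0.048 for Orc1, -0.013 to 0.073 for Cdc6, -0.027 to 0.052 for Mcm2, -0.061 to 0.013 for Mcm3, -0.014 to 0.044 for Mcm4, -0.099 to 0.029 for Mcm5, -0.091 to 0.0042 for Mcm7, -0.037 to 0.014 for Mcm10 and -0.11 to 0.048 for Cdt1. They ran from -0.11 to 0.019 for Pold1, -0.16 to 0.19 for Fen1, -0.020 to 0.27 for E2f1, -0.14 to 0.015 for E2f8, -0.041 to 0.064 for Pole, -0.034 to 0.063 for Rrm2, -0.11 to 0.013 for Rfc3, -0.052 to 0.037 for Lig1, -0.071 to 0.0099 for Tyms and -0.10 to 0.032 for Uhrf1. The cause was not tested. No paired analysis was possible because the groups share no replicate numbers. Each gene had at least 148 counts in each library. For 28 of the 41 genes the coefficient of variation over the IGF-1 libraries, replicate 5 included, was more than 2 times that of counting error. For the other 13, Fen1 among them, depth is also a limit. Much of that spread came with replicate 5. Over the 41 genes the median absolute log2 difference was 0.054 between replicates 3 and 4. For replicate 5 against the mean of replicates 3 and 4 it was 0.14.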
